A study of Mus musculus with 59 samples.

Results

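The genes described here are 32 striatal projection neuron genes, chosen by name from a list of genes of the direct pathway (6), the indirect pathway (4) and both or other classes (22). All 32 were found by symbol among the 51456 genes of the deposited table, and the 29 with a mean of at least 10 normalized counts were tested. Drd3, Isl1 and Ido1 lay under that mean and are given as values only. Bulk RNA was taken on postnatal day 25 from prefrontal cortex. The C57BL/6J pups were heterozygous (HT) for Chd8-S62X or wild type (WT), and each genotype had been given fluoxetine, lithium or vehicle in the milk of the dams between days 3 and 24. Drug groups were compared with vehicle groups, and HT with WT under each treatment. Each of the 12 groups of genotype, treatment and sex held 5 libraries, except the HT females given fluoxetine, which held 4. Fluoxetine blocks serotonin reuptake, and lithium inhibits glycogen synthase kinase 3 and inositol monophosphatase. No label names a dam or litter, so the p-values measure only the spread between these libraries, and a dam shared by pups would not be seen.

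Striatal projection neurons are the inhibitory output neurons of the caudate, putamen and nucleus accumbens. Those of the direct pathway carry the D1 dopamine receptor, dynorphin and substance P, and those of the indirect pathway carry the D2 dopamine receptor, an adenosine receptor and enkephalin. Both classes share a set of proteins that set the level of cyclic AMP or read it, among them an adenylyl cyclase, phosphodiesterases and the phosphatase inhibitor DARPP-32. The prefrontal cortex holds no projection neurons of this kind, but many of the genes are also active in cortical neurons at lower levels. In bulk RNA, fewer cells of a type and less RNA per cell cannot be told apart.

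Values are the authors' normalized counts, which summed to 30.3 to 33.7 M per library at an estimated depth of 25.8 to 36.9 M reads. Chd8 lay between 5115 and 6626 normalized counts in the 29 libraries labelled HT and between 2828 and 4229 in the 30 labelled WT. Chd8, the gene named in the mutant line, was thus higher in every HT library, against its label, so the genotypes are called HT-labelled and WT-labelled and each direction of genotype rests on those labels. Markers of cortical excitatory neurons (9 genes, among them Slc17a7 and Neurod2) had a mean log2 level between 10.82 and 11.47 with fluoxetine, between 10.76 and 11.40 with lithium and between 10.59 and 11.43 with vehicle, so every library carried the defining markers of its labelled tissue.

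The striatal genes varied more between single libraries than between groups. WT-labelled lithium male 2 held the highest value of 31 of the 32 genes, and Ebf1 alone peaked elsewhere, in HT-labelled vehicle female 5. The second highest value of 26 genes lay in HT-labelled vehicle female 3. To mark such libraries without using the 32 genes, the mean log2 level of 6 other striatal genes was taken (among them Lrrc10b, Serpina9, Pde7b, Sp9 and Ngef). Its median over the 59 libraries was 8.46, and its range was 8.04 to 10.34. The lithium male library lay 9.08 robust SDs (from the median absolute deviation) above that median and the vehicle female library 6.23. These 2 are over 5 robust SDs. A lower limit of 3 robust SDs, chosen after the data were seen, marks 9 libraries: HT-labelled fluoxetine females 1 and 2, HT-labelled lithium female 5, HT-labelled lithium males 1 and 4, WT-labelled lithium male 2, HT-labelled vehicle female 3, HT-labelled vehicle male 4 and WT-labelled vehicle female 5. These 9 are called striatum-rich here. The mean level of the 29 tested genes themselves puts 8 of the same 9 over 5 robust SDs, all but the HT-labelled vehicle male.

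**Figure D1:**
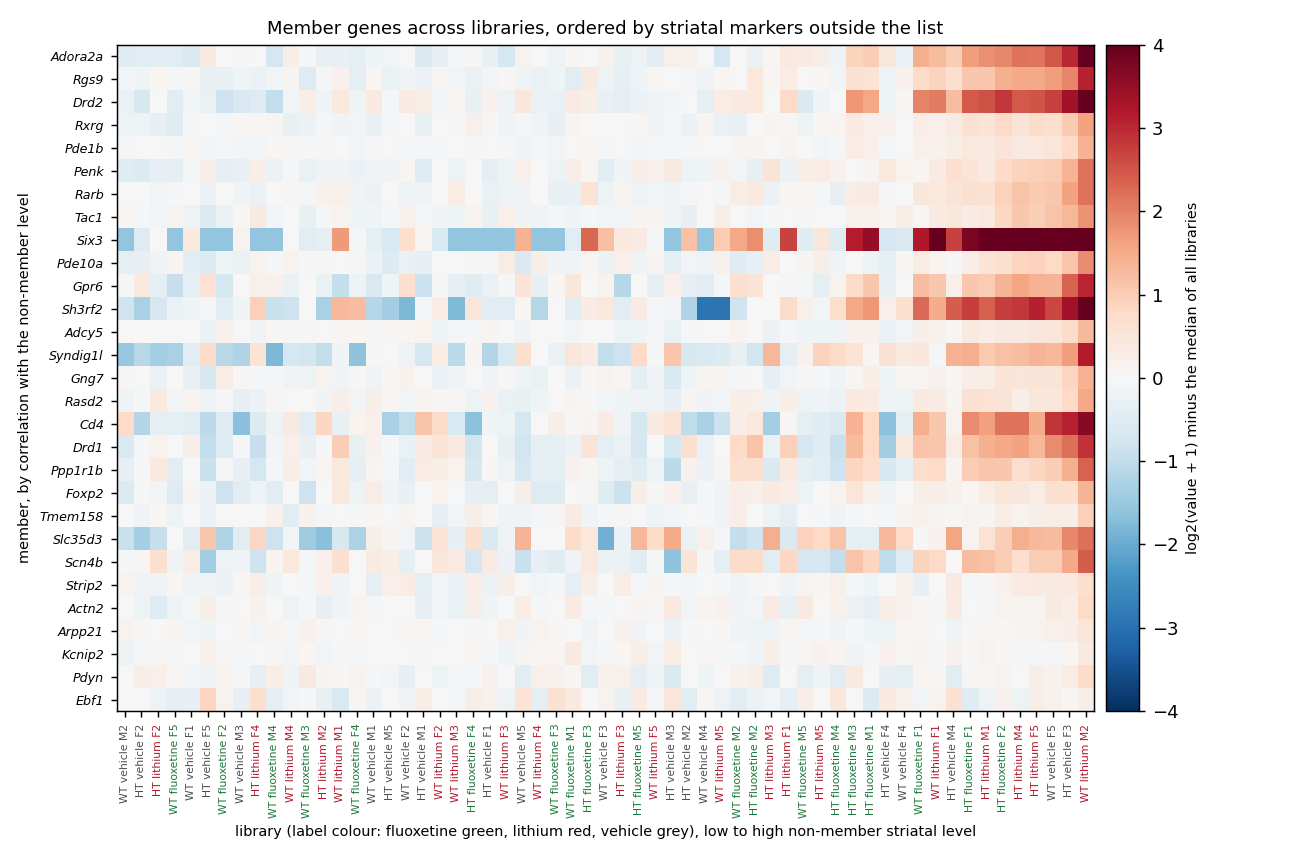
Colour gives the log2(value + 1) of each of the 29 tested genes (rows, by their correlation with the other striatal markers) minus its median over the 59 libraries (columns, from low to high level of the 6 other striatal markers), with colours ending at 4 log2 units either side. Most genes are highest in the columns at the right, where WT-labelled lithium male 2 is last, while Ebf1, Kcnip2 and Pdyn at the bottom change little along the row.

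The ratio to the series median in a striatum-rich library differed between genes. In WT-labelled lithium male 2, 22 of the 29 tested genes were over 2-fold above their median of all libraries, with a median ratio of 3.69, and all 29 were above every other library of the group. In HT-labelled vehicle female 3 the numbers were 17 genes over 2-fold, a median ratio of 2.52 and 27 genes above the rest of the group. WT-labelled vehicle female 5 had 14 genes over 2-fold and a median ratio of 1.97. The lowest of the 9, HT-labelled vehicle male 4, had 5 genes over 2-fold and a median ratio of 1.23. Six3 and Sh3rf2 passed the filter at a mean of 10 only through these 9 libraries, with means of 5.18 and 7.55 outside them, so their ratios there had to be high. Over the 27 other genes the counts over 2-fold were 20, 15, 12 and 3 in the same 4 libraries. The median ratio of the tested indirect pathway genes was above that of the tested direct pathway genes in all 9 libraries. It was 12.8 for 4 indirect genes and 3.48 for 5 direct genes in the WT-labelled lithium male, 6.68 and 2.52 in the HT-labelled vehicle female and 4.09 and 2.19 in the WT-labelled vehicle female. The 20 shared or other genes had median ratios of 3.00, 1.94 and 1.57 in the same libraries. Single genes of the pathways overlapped. In the WT-labelled lithium male, Drd2 (25.6), Adora2a (17.3) and Gpr6 (8.34) were above every tested direct gene. Penk (4.51) was under Drd1 (7.50) and Slc35d3 (4.66) there, and Pdyn had 1.65. The direct pathway gene Isl1 was under the filter and is not in these medians. In that library it had 97.2 counts, 95.2 times its median of 1.02. The order of the pathways thus depends on which genes were tested.

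Promoter sequences of 23 of the 32 genes were found in RefSeq (GRCm38.p6, 300 bases, 250 before and 50 after the start), as 39 windows. They were searched on both strands for the cyclic AMP response element TGACGTCA and for the shorter form TGCGTCA, since several of the genes act on cyclic AMP. TGACGTCA was in 1 of the 39 windows, that of Gpr6, and in 1.79% of all 32851 windows. TGCGTCA was in 3 windows, of Arpp21, Isl1 and Tac1, and in 2.12% of all windows. The windows of Gpr6 (chr10:41072241-41072540, minus strand) and Tac1 (chr6:7554811-7555110, plus strand) are shown with the motif in capitals, and the pair of Pde10a windows (chr17:8801495-8801794 and chr17:8849735-8850034, plus strand) because Pde10a is the member that passed a drug test.
Gpr6: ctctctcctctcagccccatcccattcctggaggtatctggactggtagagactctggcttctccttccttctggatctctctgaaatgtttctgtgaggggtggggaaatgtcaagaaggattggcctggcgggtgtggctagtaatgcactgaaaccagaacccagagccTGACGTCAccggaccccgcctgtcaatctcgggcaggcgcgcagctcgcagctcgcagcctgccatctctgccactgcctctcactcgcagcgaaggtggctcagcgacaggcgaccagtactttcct
Tac1: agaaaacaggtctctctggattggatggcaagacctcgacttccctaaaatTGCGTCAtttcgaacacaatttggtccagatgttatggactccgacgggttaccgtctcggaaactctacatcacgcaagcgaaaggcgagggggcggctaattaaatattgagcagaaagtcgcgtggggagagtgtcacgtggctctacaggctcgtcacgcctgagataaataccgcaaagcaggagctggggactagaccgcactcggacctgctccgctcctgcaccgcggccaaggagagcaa
Pde10a, first start: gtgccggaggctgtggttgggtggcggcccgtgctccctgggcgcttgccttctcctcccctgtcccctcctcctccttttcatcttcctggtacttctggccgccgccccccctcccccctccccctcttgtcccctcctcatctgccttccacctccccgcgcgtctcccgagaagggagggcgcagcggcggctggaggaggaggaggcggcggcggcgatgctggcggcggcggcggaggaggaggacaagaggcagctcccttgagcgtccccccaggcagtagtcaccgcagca
Pde10a, second start: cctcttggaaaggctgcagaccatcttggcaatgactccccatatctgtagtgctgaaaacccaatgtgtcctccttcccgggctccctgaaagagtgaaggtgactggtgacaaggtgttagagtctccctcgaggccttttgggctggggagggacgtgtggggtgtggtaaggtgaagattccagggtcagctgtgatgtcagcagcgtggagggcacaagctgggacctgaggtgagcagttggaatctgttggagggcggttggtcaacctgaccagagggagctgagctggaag
The motif begins 78 bases before the start in Gpr6 and 199 bases before it in Tac1. Neither form was in the Pde10a windows, whose GC content was 71.3% and 56.7%. First and second give only the order of these windows. Both lie inside the GENCODE gene, which begins at chr17:8525372, and no window at that beginning was searched. These letters describe the windows and are no evidence of binding.

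Drd1 (ENSMUSG00000021478, chr13:54051183-54055705, minus strand, GRCm38) encodes the D1 dopamine receptor, which raises cyclic AMP and marks the direct pathway. Drd1 in HT-labelled females stood at 493, 629, 309.7 and 132 normalized counts with fluoxetine, 426, 239, 180.1, 115 and 553 with lithium and 223, 209, 1004, 83.0 and 110.1 with vehicle. The HT-labelled males had 380.2, 481, 522, 116 and 138 counts of Drd1 with fluoxetine, 586, 205, 180.1, 675 and 155 with lithium and 274, 338, 135, 268 and 213 with vehicle. The vehicle females hold both the lowest value of the series and a value of 1004 in the striatum-rich replicate 3, and drug and vehicle groups overlap in both sexes. For Drd1, the WT-labelled females gave 479, 151, 166, 177 and 223 with fluoxetine, 473, 319, 179, 166 and 216 with lithium and 258, 182, 167, 288 and 806 with vehicle. Values of Drd1 in WT-labelled males were 186, 377, 179, 203 and 137 with fluoxetine, 437, 1637, 286, 254 and 218 with lithium and 245, 141, 206, 180.4 and 129.8 with vehicle. Replicate 2 of the lithium males, at 1637, is the highest of all libraries, and the other 4 libraries of that group reach 437 at most.

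**Figure D2:**
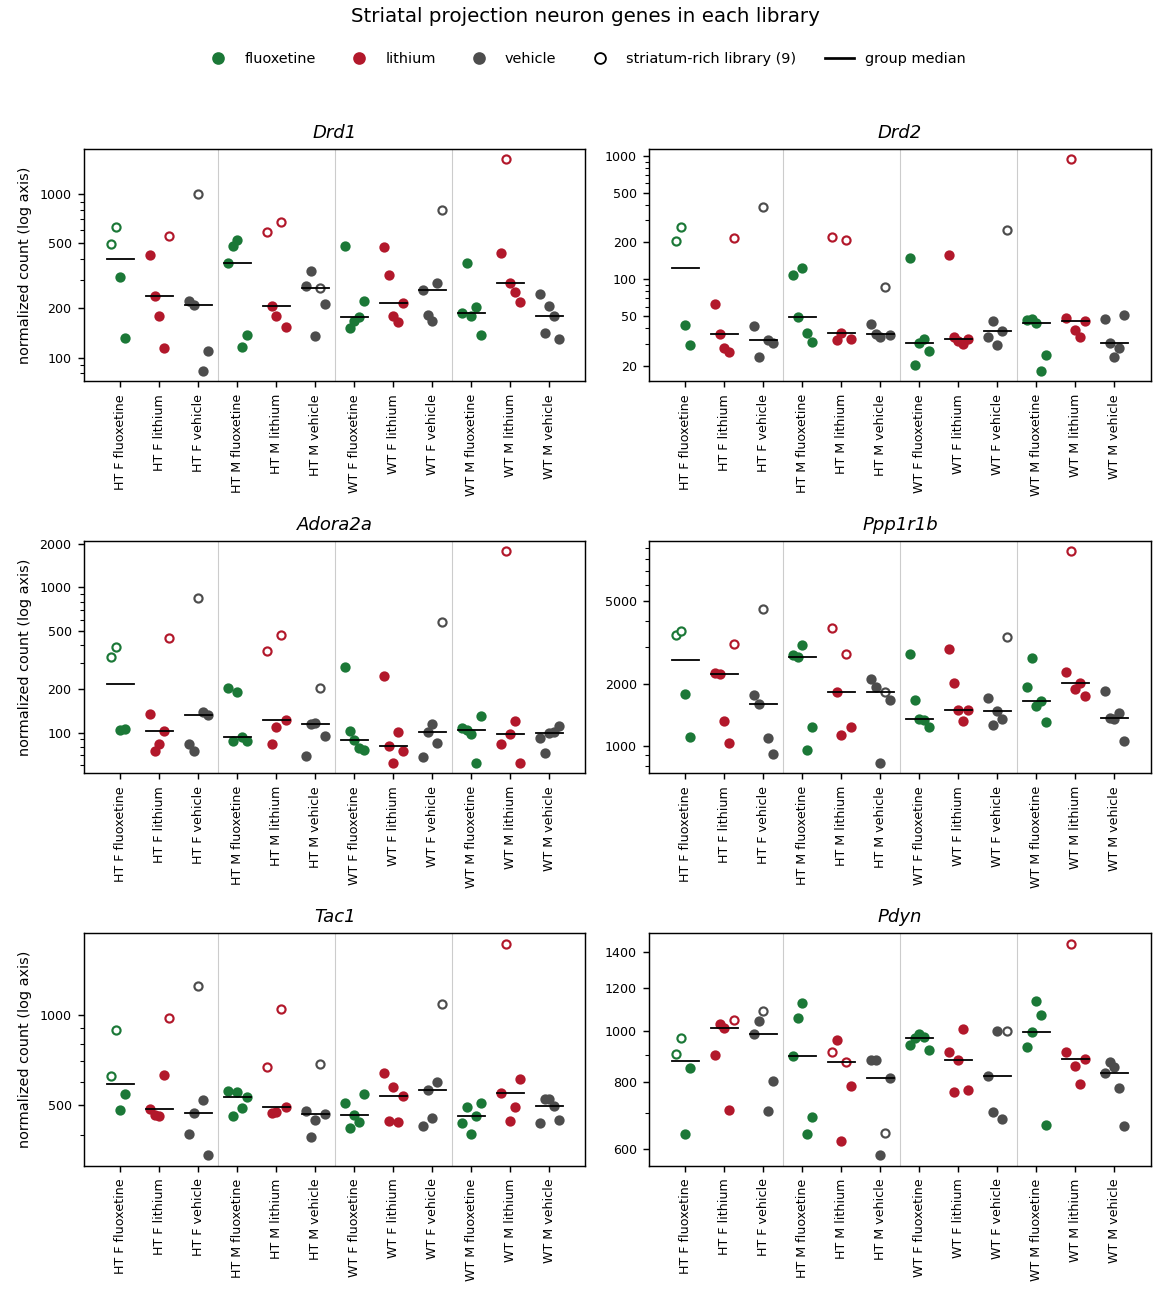
Each point is a library, in normalized counts on a log axis, for Drd1, Drd2, Adora2a, Ppp1r1b, Tac1 and Pdyn in the 12 groups (HT left of WT, F female, M male, with fluoxetine, lithium and vehicle from left to right). Open points are the 9 striatum-rich libraries and bars are group medians; open points lie at the top of most groups for Drd2 and Adora2a and among the other points for Pdyn.

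Tac1 (ENSMUSG00000061762, chr6:7554879-7565834, plus strand, GRCm38) encodes the precursor of substance P, a peptide of direct pathway terminals. The HT-labelled females had 627, 887, 483 and 546 counts of Tac1 with fluoxetine, 488, 463, 459, 629.7 and 974.5 with lithium and 401, 473, 1246, 522 and 342 with vehicle. For Tac1, the HT-labelled males gave 558, 462, 555, 489 and 535 with fluoxetine, 669.5, 470.5, 475, 1041 and 495 with lithium and 480.4, 393, 446, 684 and 468 with vehicle. The values over 850 are those of striatum-rich libraries, while the remaining libraries of these groups lie between 342 and 684. Values of Tac1 in WT-labelled females were 507, 420.4, 464, 441 and 547 with fluoxetine, 641, 444, 574, 441 and 537 with lithium and 426, 561, 455, 598 and 1082 with vehicle. Tac1 in WT-labelled males stood at 438, 495, 402, 459.9 and 509.9 normalized counts with fluoxetine, 551, 1723, 442, 493 and 613 with lithium and 436, 523, 526, 497 and 448 with vehicle. The 2 striatum-rich libraries, at 1723 and 1082, are again the highest of their genotype.

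Pdyn (ENSMUSG00000027400, chr2:129686565-129699844, minus strand, GRCm38) encodes prodynorphin, the precursor of the kappa opioid receptor's ligands. For Pdyn, the HT-labelled females gave 903, 967, 640.1 and 849.8 with fluoxetine, 899.9, 1027, 1012, 709 and 1048 with lithium and 985, 1039.9, 1086, 706 and 803 with vehicle. Values of Pdyn in HT-labelled males were 896, 1058, 1124, 640.1 and 690.1 with fluoxetine, 912, 959.6, 621, 872 and 789 with lithium and 882, 881, 585, 642 and 816 with vehicle. The striatum-rich replicate 3 of the vehicle females, at 1086, lies close to several other libraries. Pdyn in WT-labelled females stood at 939, 969, 985, 971 and 921 normalized counts with fluoxetine, 911, 769, 882, 1007 and 773 with lithium and 822, 705, 999, 683 and 999 with vehicle. The WT-labelled males had 934, 994, 1135, 1069 and 666 counts of Pdyn with fluoxetine, 912, 1454, 859, 795 and 883 with lithium and 834, 873, 854, 781 and 664 with vehicle. Its 90th percentile over all libraries was 1.58 times its 10th, against 4.16 times for Drd1. Pdyn varied less than the D1 receptor gene across the same libraries.

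The other direct pathway genes were lower. Ebf1, a transcription factor of developing direct pathway neurons, had a median of 128 normalized counts (83.3 to 230.0). Slc35d3, which encodes an orphan nucleotide sugar transporter needed for D1 receptor trafficking in mice, had a median of 48.2 (12.1 to 224). Isl1, which specifies direct pathway neurons in the mouse embryo, was listed at 0 in 26 libraries, had a median of 1.02 and reached 97.2 in WT-labelled lithium male 2.

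Drd2 (ENSMUSG00000032259, chr9:49340627-49408177, plus strand, GRCm38) encodes the D2 dopamine receptor, which lowers cyclic AMP and marks the indirect pathway. Values of Drd2 in HT-labelled females were 203, 265, 43.0 and 29.6 with fluoxetine, 63.1, 36.4, 27.9, 25.6 and 215 with lithium and 41.6, 23.4, 383, 32.4 and 30.5 with vehicle. Drd2 in HT-labelled males stood at 109, 49.3, 125, 36.7 and 31.1 normalized counts with fluoxetine, 219, 32.3, 37.1, 207 and 32.6 with lithium and 43.7, 36.2, 34, 87.5 and 35.4 with vehicle. Striatum-rich libraries lie at 87.5 or above, and the others within 23.4 and 63.1 apart from 2 of the fluoxetine males, at 109 and 125. The WT-labelled females had 148, 20.3, 30.7, 32.7 and 26.4 counts of Drd2 with fluoxetine, 158, 34.3, 31.5, 30.2 and 33.1 with lithium and 33.8, 46.3, 29.6, 38.2 and 252 with vehicle. For Drd2, the WT-labelled males gave 46.5, 47.9, 44.3, 18.2 and 24.4 with fluoxetine, 49.0, 939.9, 38.9, 34.3 and 45.7 with lithium and 47.8, 30.4, 23.5, 27.8 and 51.0 with vehicle. The 940-count library of the lithium males is 25.6 times the median of all libraries, 36.7. Replicates 1 of the fluoxetine and lithium females, at 148 and 158, are not among the 9 striatum-rich libraries but stand apart from the rest of their groups.

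Adora2a (ENSMUSG00000020178, chr10:75316877-75334784, plus strand, GRCm38) encodes an adenosine receptor, which opposes the D2 receptor in the same neurons. Adora2a in HT-labelled females stood at 330.4, 388, 104 and 105 normalized counts with fluoxetine, 135, 75.4, 84.1, 103 and 452 with lithium and 83.8, 75.1, 839.7, 139 and 133 with vehicle. The HT-labelled males had 204, 87.5, 191, 93.9 and 88.4 counts of Adora2a with fluoxetine, 367, 83.4, 109, 468 and 121 with lithium and 68.9, 114, 117, 204 and 94.4 with vehicle. Values over 300 occur only in striatum-rich libraries here, and libraries of the 3 treatments otherwise overlap. For Adora2a, the WT-labelled females gave 285, 103, 88.9, 78.0 and 76.1 with fluoxetine, 246, 80.9, 62.04, 101 and 75.3 with lithium and 68.3, 102, 116, 85.3 and 574 with vehicle. Values of Adora2a in WT-labelled males were 108, 104, 98.2, 62.2 and 130.2 with fluoxetine, 84.0, 1770.5, 98.0, 120.4 and 62.2 with lithium and 91.5, 72.6, 100.1, 102 and 112 with vehicle. The lithium males hold both the highest value of the series, 1770.5, and one near the lowest, 62.2.

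Penk (ENSMUSG00000045573, chr4:4133531-4138819, minus strand, GRCm38) encodes proenkephalin, the opioid peptide precursor of the indirect pathway. The HT-labelled females had 1852, 2293, 1385 and 1307 counts of Penk with fluoxetine, 1114, 1045, 1163, 1575 and 2554 with lithium and 1021, 896, 3327, 1756 and 1586 with vehicle. For Penk, the HT-labelled males gave 1419.6, 1037, 1321, 1488 and 1569.7 with fluoxetine, 1693, 1187, 1871, 2399.8 and 1607 with lithium and 916, 1140.2, 1694, 2028 and 1191 with vehicle. The range of the vehicle females, 896 to 3327, covers those of both drug groups. Values of Penk in WT-labelled females were 1369, 1012, 1123, 1115 and 1016 with fluoxetine, 1624, 1292, 1146, 1292 and 1483 with lithium and 1227, 1348, 974, 1436 and 2627 with vehicle. Penk in WT-labelled males stood at 1574, 1224, 1091, 1114 and 1549 normalized counts with fluoxetine, 1182, 5898, 1134, 1271 and 1471 with lithium and 1193, 935, 1058, 1149.6 and 1500.5 with vehicle. Outside replicate 2 of the lithium males and replicate 5 of the vehicle females, WT-labelled libraries lie between 935 and 1624. Gpr6, which encodes an orphan receptor of the indirect pathway that raises cyclic AMP, had a median of 43.1 (18.9 to 359).

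Ppp1r1b (ENSMUSG00000061718, chr11:98348404-98357796, plus strand, GRCm38) encodes DARPP-32, which inhibits protein phosphatase 1 once protein kinase A has phosphorylated it. For Ppp1r1b, the HT-labelled females gave 3420.2, 3602, 1780.2 and 1100.0 with fluoxetine, 2263, 2216, 1323, 1039 and 3106 with lithium and 1753, 1602, 4568, 1094 and 913 with vehicle. Values of Ppp1r1b in HT-labelled males were 2764, 2683, 3077, 959.8 and 1229 with fluoxetine, 3696, 1814, 1132, 2773 and 1242 with lithium and 2113, 1930.2, 828.9, 1827 and 1670.3 with vehicle. Several libraries outside the striatum-rich 9 reach over 2600, such as 3 of the fluoxetine males. Ppp1r1b in WT-labelled females stood at 2791, 1668, 1345, 1341 and 1241 normalized counts with fluoxetine, 2946, 2018, 1485, 1321 and 1486 with lithium and 1707, 1260.4, 1473, 1344 and 3362 with vehicle. The WT-labelled males had 1923, 2672, 1566, 1653 and 1305 counts of Ppp1r1b with fluoxetine, 2271, 8692, 1878, 2004 and 1746 with lithium and 1846, 1367, 1350.0, 1449.8 and 1058 with vehicle. All 5 lithium males are above the median of the vehicle males, 4 of them above every vehicle male.

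Foxp2 (ENSMUSG00000029563, chr6:14901349-15441977, plus strand, GRCm38) encodes a transcription factor of striatal neurons and of deep cortical layers. Values of Foxp2 in HT-labelled females were 375, 498, 364 and 279 with fluoxetine, 424, 329, 196, 311 and 437 with lithium and 275, 338, 563, 321 and 301 with vehicle. Foxp2 in HT-labelled males stood at 409, 409, 497, 387 and 417 normalized counts with fluoxetine, 439, 350.2, 466, 484 and 359 with lithium and 356, 289.6, 401, 397 and 320.2 with vehicle. Of the 5 fluoxetine males, 4 lie above every vehicle male and all 5 above the vehicle median. The WT-labelled females had 414, 199.97, 249, 307 and 248 counts of Foxp2 with fluoxetine, 427, 394, 354, 245 and 339.6 with lithium and 381, 285, 252, 354 and 553 with vehicle. For Foxp2, the WT-labelled males gave 349, 424, 197, 257 and 310.5 with fluoxetine, 478, 916, 352, 354 and 324 with lithium and 433, 244, 260.1, 339 and 417 with vehicle. The ranges of all WT-labelled groups overlap.

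Arpp21 (ENSMUSG00000032503, chr9:112065091-112235938, minus strand, GRCm38) encodes a phosphoprotein regulated by cyclic AMP and is abundant in cortical as well as striatal neurons. Arpp21 in HT-labelled females stood at 14642, 14959.5, 12668 and 13432 normalized counts with fluoxetine, 14942, 13877, 15968, 13178 and 15432 with lithium and 13968, 14612, 16460.2, 12324 and 12384 with vehicle. The HT-labelled males had 12504, 12189, 13285, 12695 and 12699 counts of Arpp21 with fluoxetine, 14798, 14602, 12167, 15178 and 13762 with lithium and 14734, 13493, 12064, 12446 and 14004 with vehicle. Drug and vehicle groups overlap in both sexes. For Arpp21, the WT-labelled females gave 14497, 14187, 14474, 14747 and 15256 with fluoxetine, 14099.5, 13352, 16350.0, 15512 and 13899 with lithium and 13077, 14706, 14396, 14687 and 16389.7 with vehicle. Values of Arpp21 in WT-labelled males were 14100.2, 12894, 15760.4, 15106 and 13256 with fluoxetine, 14296, 19514, 13885, 13599 and 14920.2 with lithium and 14011, 15471, 14817, 14005 and 12787 with vehicle. The highest value, 19514 in replicate 2 of the lithium males, is 1.38 times the median of all libraries.

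Per kilobase of exon, the mean level over all libraries was 1074 normalized counts for Gng7, a G protein gamma subunit, 922 for Penk, 820.4 for Kcnip2, a potassium channel partner, and 815 for Arpp21. Adcy5, the main striatal adenylyl cyclase, had 692 per kilobase, Ppp1r1b 689 and Pde1b, a calmodulin-dependent phosphodiesterase, 682. Rgs9, a striatal regulator of G protein signalling, had 93.1, Drd1 86.1, Adora2a 59.3 and Drd2 32.9. At the low end were Six3, a homeodomain factor of the striatal lineage, with 3.53, Sh3rf2 with 3.08, Drd3, the D3 dopamine receptor, with 2.46 and Isl1 with 1.80. Among the remaining members, Rarb, a retinoic acid receptor gene of striatal development, had a median of 237 (188 to 1069.9) normalized counts over the 59 libraries, and Rasd2, a striatal small GTPase gene, 1233 (985 to 3603). Strip2 had 1578 (1205 to 2527), Actn2, an alpha-actinin gene, 556 (389 to 939.9), Scn4b 1355 (447 to 7316), Tmem158 564 (412 to 1084), Syndig1l 116 (32.5 to 1051) and Rxrg 223 (161 to 687). The untested Ido1, a tryptophan-degrading enzyme, had 4.76 (0 to 64.8), and Drd3 2.42 (0 to 39.7). Six3 was listed at 0 in 14 libraries and reached 277 normalized counts in the lithium male library that held most of the highest values. Cd4, best known from helper T cells, had 287 counts in that library, where the T cell genes Cd3e and Cd8a had 1.73 and 1.15. In HT-labelled vehicle female 3 it had 191, with Cd3e at 0.856 and Cd8a at 0.

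Most of the tested genes varied with the 6 other striatal markers across libraries. Of the 29 tested genes, 29 had a positive Pearson correlation with the mean log2 level of these markers over 59 libraries. Of these, 25 passed with both Pearson and Spearman tests (two-sided permutation tests of 100000 resamples, Benjamini-Hochberg adjusted over 256 relations with 8 marker lists). Six3 and Sh3rf2 are among the 25, but passed the filter only through the 9 libraries highest on this level, so their correlations are no support. The share of all genes correlated with this level was not computed. Adora2a had r = 0.932 and rho = 0.713, with adjusted permutation p of 2.98e-05 and 4.83e-05, and r = 0.886 once the 2 most distant libraries were dropped. Rgs9 had r = 0.927 and rho = 0.652, and Drd2 r = 0.907 and rho = 0.666. Pde10a had r = 0.820 and rho = 0.512, with adjusted permutation p of 2.98e-05 and 0.000188. The 4 genes that missed a threshold were Arpp21 (r = 0.409, rho = 0.0449), Kcnip2 (0.278 and 0.172), Pdyn (0.264 and 0.0254) and Ebf1 (0.124 and 0.139). The median r over the 29 genes was 0.780 in all libraries. In the 50 others it was 0.308, but leaving out the libraries with the highest marker level narrows its range, so the values cannot be compared. Among the 50, 7 genes had an r over 0.5, Adora2a (0.645) and Drd2 (0.610) first among them.

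Markers of other cells moved with the genes too. The median r of the 29 genes was 0.743 with 4 genes of striatal cholinergic interneurons (Chat among them), 0.529 with 6 genes of oligodendrocytes, 0.310 with 5 septal genes and −0.154 with 6 olfactory bulb genes. Without the 9 libraries these were 0.213, 0.279, −0.114 and −0.153. Bulb markers went with single genes in opposite ways, at r = 0.702 for Slc35d3 and −0.722 for Pdyn. Apart from a fit with the olfactory bulb level as a covariate, the part of these cells in any group difference was not tested.

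Over the 12 groups, with all libraries, no striatal gene passed a test for any group difference (limma F test on log2(value + 1), Benjamini-Hochberg adjusted over 16839 genes), while 562 genes passed, 3.34% of those tested. At an unadjusted p under 0.05 in the same limma F test it was 1 gene, Pde10a, against 18.6% of all genes. Without the 2 or the 9 striatum-rich libraries, Pde10a passed the limma F test (adjusted p of 0.0135 and 0.00186). With the striatal level as a covariate it also passed (adjusted p = 0.00482 in the same F test). Without the 8 it passed too, but that fit is no support. Those 8 were picked by the level of the 29 genes, Pde10a among them. Pde10a did not pass under the other alternatives. With the olfactory bulb level as a covariate, or with replicate numbers as a block, no striatal gene had an unadjusted p under 0.05 in the F test. The share of all genes that passed the alternative F tests was not counted. The share of variance that lay between groups had a median of 14.8% over the 29 genes and 22.3% over all genes, and 3 of the 29 were above the median of all genes. Over all 59 libraries, groups pooled, 12 of the 29 were above the 90th percentile of all genes for their SD on the log2 scale. Six3 and Sh3rf2 are among the 12, but passed the filter only through the 9 striatum-rich libraries, so their SDs are no support.

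Lithium raised 1 of the 29 genes, Pde10a, when averaged over the 4 combinations of genotype and sex. That is near the background, since 4.41% of all genes were called in this comparison. Of the 29 genes, 25 had a higher mean with lithium, against 49.8% of all genes, and the median log2 fold change was 0.14, against −0.00038 over all genes. The levels were not tested as a list. Direct pathway genes had a median of 0.12 (4 of 5 above 0), indirect pathway genes 0.19 (4 of 4) and shared or other genes 0.13 (17 of 20). Drd1 had 0.41 ± 0.278, Drd2 0.39 ± 0.380, Ppp1r1b 0.35 ± 0.207 and Scn4b, a sodium channel beta subunit, 0.41 ± 0.244 (SE), and none of them passed. Six3 had the largest value, 0.74 ± 0.697, and Ebf1 the lowest, −0.23 ± 0.103 with adjusted p = 0.204. The median level of cholinergic markers was 3.55 on the log2 scale in lithium libraries and 3.23 in vehicle libraries, and that of the 6 other striatal markers 8.48 and 8.40.

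Pde10a (ENSMUSG00000023868, chr17:8525372-8986648, plus strand, GRCm38) encodes phosphodiesterase 10A, which breaks down cyclic AMP and cyclic GMP and is the best known phosphodiesterase of striatal projection neurons. The HT-labelled females had 3289, 4255, 2910.1 and 2855 counts of Pde10a with fluoxetine, 2769, 2463, 3139, 2992 and 5151 with lithium and 2660.1, 2180.4, 5972, 2099.8 and 1863 with vehicle. For Pde10a, the HT-labelled males gave 2374, 2190.4, 2743, 2473 and 2428 with fluoxetine, 3974, 2831, 3336, 4995 and 3235 with lithium and 2191, 2546, 2113, 2602 and 1873 with vehicle. All 5 lithium males lie above all 5 vehicle males, while lithium females overlap with the striatum-rich vehicle library. Values of Pde10a in WT-labelled females were 3375, 2434, 2467, 2820.4 and 2955 with fluoxetine, 2999, 2794, 3356, 3310.2 and 2962 with lithium and 2003, 2276, 2343, 2848 and 4769 with vehicle. Pde10a in WT-labelled males stood at 2433, 1965, 2633, 2652 and 2942 normalized counts with fluoxetine, 2689, 10121, 2767, 2991 and 3080.0 with lithium and 2353, 2112, 2273, 2364 and 1823 with vehicle. Again the lithium males lie above every vehicle male, and each of the 20 lithium libraries lies above 2275, the median of the 20 vehicle libraries. The log2 fold change was 0.47 ± 0.124 (SE), 1.39-fold, with adjusted p = 0.0180, and Pde10a ranked 353 of 16839 genes by p. In HT-labelled libraries it was 0.47 (adjusted p = 0.285) and in WT-labelled libraries 0.48 (adjusted p = 0.237), so it passed in neither genotype alone, where 0.238% and 0.214% of all genes were called. Males had 0.68 (HT-labelled) and 0.77 (WT-labelled), females 0.26 and 0.19, and the difference of the lithium effect between females and males was −0.50 ± 0.247 (adjusted p = 0.9999 with limma). Left out one at a time, the 40 lithium and vehicle libraries gave values of 0.38 to 0.54 with adjusted p of 0.00234 to 0.0328. In a fit of the lithium and vehicle groups alone, without the fluoxetine libraries, the adjusted p was 0.0541.

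**Figure D3:**
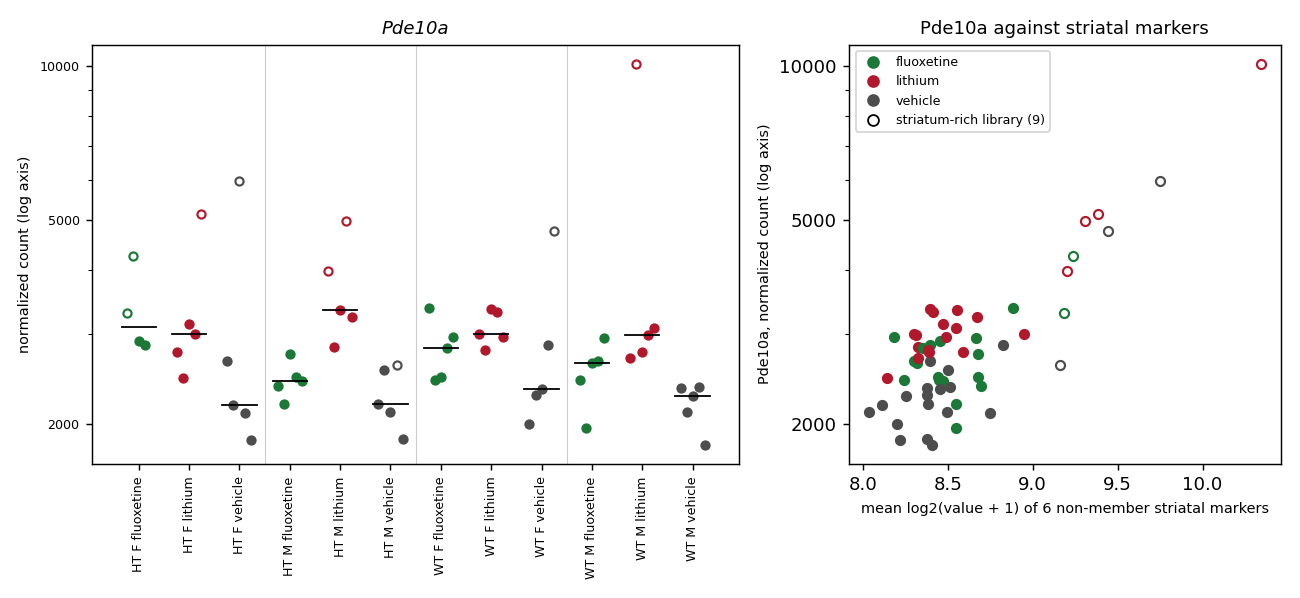
Left, normalized counts of Pde10a (log axis) per library in the 12 groups, with bars at the group medians. Right, the same counts against the mean log2 level of 6 other striatal markers, with open points for the 9 striatum-rich libraries; among filled points the lithium libraries (2463 to 3356) lie mostly above the vehicle libraries (1823 to 2848) at similar marker levels.

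The lithium difference of Pde10a was also present outside the striatum-rich libraries. Without the 2 libraries over 5 robust SDs it was 0.45 ± 0.083 with adjusted p = 0.000597, at rank 47, and 5.6% of all genes were called. Without the 9 it was 0.42 ± 0.056 with adjusted p = 1.34e-05, at rank 3, where 361 and 203 genes were called up and down, 3.35% of those tested. With the level of the 6 other striatal markers as a covariate, Pde10a had 0.38 ± 0.059 and adjusted p = 0.000122, with 4.79% of all genes called. Of the 16 lithium libraries left, all 16 lay above the median of the 17 vehicle libraries left, and 10 above their highest, 2848. Without the 9, Pde10a passed in both genotypes, at 0.45 ± 0.083 in HT-labelled (adjusted p = 0.0109) and 0.40 ± 0.076 in WT-labelled libraries (adjusted p = 0.00820), with 0.0831% and 0.261% of all genes called. The values of single strata were then 0.37 in females and 0.53 in males with the HT label, and 0.39 and 0.40 with the WT label, and the difference between the sexes was −0.08 ± 0.112.

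With all libraries, the other named genes did not pass for lithium within a genotype. In HT-labelled libraries Ebf1 had −0.33 ± 0.145, Strip2 0.14 ± 0.096 and Six3 1.187 ± 0.986. In WT-labelled libraries Ppp1r1b had 0.49 ± 0.292, Pdyn 0.16 ± 0.112, Cd4 0.55 ± 0.545 and Ebf1 −0.13 ± 0.145. The lithium differences of the other striatal genes were mostly nearer 0 without those libraries. Without the 9, the median over the 29 genes was 0.07 with 23 above 0, against 49.9% of all genes, and only Pde10a passed. Drd2 had 0.15 ± 0.224, Drd1 0.28 ± 0.218, Adora2a 0.01 ± 0.170 and Ppp1r1b 0.24 ± 0.163. In WT-labelled males the median was 0.45 with all libraries, and 0.08 once lithium male 2 was left out. In HT-labelled males it was 0.30 with all libraries and 0.05 without the 9. In HT-labelled females it was 0.01 and 0.07, and in WT-labelled females −0.11 and 0.12. The drug and vehicle groups held unequal numbers of striatum-rich libraries, with 4 under lithium and 3 under vehicle.

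**Figure D4:**
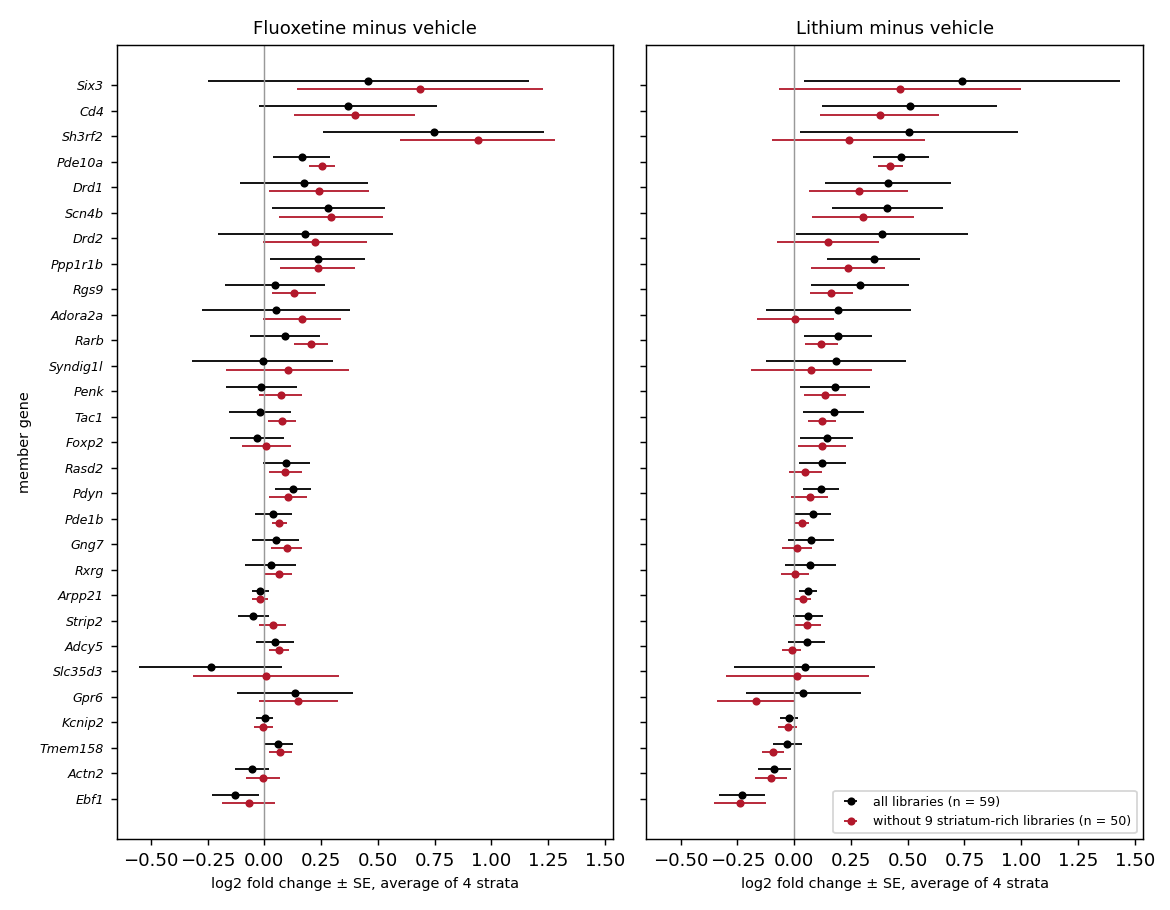
Log2 fold change of each of the 29 tested genes for fluoxetine minus vehicle (left) and lithium minus vehicle (right), each the average of 4 strata, with bars for the SE; black for all 59 libraries and red for the 50 that are not striatum-rich. Pde10a with lithium stands clear of 0 in both colours, at 0.47 ± 0.124 and 0.42 ± 0.056, while Drd2 and Adora2a with lithium lie nearer 0 in red.

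The fluoxetine and lithium comparisons share the vehicle libraries. Fluoxetine changed none of the 29 genes when averaged over strata, where 0.0653% of all genes (11) were called. At an unadjusted p under 0.05 the count was also 0, against 11.9% of all genes. The median log2 fold change was 0.05 with 20 of 29 genes above 0, against 50.9% of all genes. Olfactory bulb markers had a median level of 6.22 on the log2 scale in fluoxetine libraries and 7.79 in vehicle libraries, and 0 of the 6 had a fold change above 0 (median −0.59). None of these markers passed. Pdyn and Slc35d3 were the genes most correlated with them. Apart from a fit with the bulb level as a covariate, not given here, the part of the markers in the values of both genes was not tested. Pdyn had the smallest p, at 0.13 ± 0.080 (adjusted p = 0.533), then Sh3rf2 at 0.75 ± 0.488 and Pde10a at 0.17 ± 0.125, and Slc35d3 had the lowest value, −0.24 ± 0.315, which was 0.00866 without the 9 libraries. Without the 9 libraries no gene passed either, but Pde10a had 0.25 ± 0.057 with an unadjusted p of 5.97e-05 and adjusted p = 0.187, and 15 of the 17 fluoxetine libraries left lay above the vehicle median. The median over the genes was then 0.10 with 25 above 0, against 51.6% of all genes, and 0% were called. In HT-labelled libraries the median was 0.18 (24 of 29 above 0, against 52.1% of all genes) and in WT-labelled libraries −0.04 (11 of 29, against 48.6%). Both values rest in part on single vehicle libraries. Without WT-labelled vehicle female 5 the WT-labelled median was 0.04, as it was without the 9, where 19 of 29 were above 0. Without HT-labelled vehicle female 3 the HT-labelled median was 0.30, and without HT-labelled fluoxetine female 2 it was 0.11. No gene passed in either, where 0% and 0.19% of all genes were called, nor in the difference between the genotypes (lowest adjusted p = 0.802). In HT-labelled libraries Ebf1 had −0.25 ± 0.150, Six3 1.71 ± 1.016 and Sh3rf2 1.09 ± 0.701. In WT-labelled libraries Pdyn had 0.22 ± 0.112, Strip2 −0.17 ± 0.096, Foxp2 −0.25 ± 0.166, Sh3rf2 0.40 ± 0.680 and Six3 −0.79 ± 0.986.

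Lithium and fluoxetine libraries were also compared directly, with no vehicle library in the difference. With all libraries, 8.88% of all genes and none of the 29 passed, at a median of 0.11. Pde10a was 0.31 higher with lithium (adjusted p = 0.118), and 0.17 without the 9 libraries (adjusted p = 0.0736), where 5.93% of all genes were called. With the marker level as covariate it was 0.23 ± 0.060 and passed (adjusted p = 0.00927), with 8.99% of all genes called. Tmem158, a transmembrane protein gene, had −0.16 ± 0.050 without the 9 libraries and passed (adjusted p = 0.0435), but had −0.09 ± 0.065 with all libraries and did not (adjusted p = 0.419).

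Genotype changed none of the 29 genes under any treatment. Under fluoxetine, where 0.849% of all genes passed, the median difference of HT-labelled minus WT-labelled libraries was 0.31 with 23 of 29 above 0, against 50.5% of all genes. Foxp2 had 0.47 ± 0.171 (adjusted p = 0.166), Syndig1l, a synapse differentiation protein gene, 1.13 ± 0.448 (0.209), Rxrg, a retinoid receptor gene, 0.40 ± 0.163 (0.226), Six3 2.30 ± 1.016 (0.269) and Arpp21 −0.12 ± 0.057 (0.319). These 5 were the genes with an unadjusted p under 0.05, against 14.7% of all genes. Six3 is no support among them, since it passed the filter only through the 9 striatum-rich libraries (mean of 5.18 outside them). Of the HT-labelled fluoxetine females, 2 of 4 were striatum-rich, and no WT-labelled fluoxetine library was. Without the 9 the median was 0.06 and Foxp2 had 0.36 ± 0.159. Oligodendrocyte markers were also higher in these HT-labelled libraries, at a median of 13.98 against 13.33 in WT-labelled ones on the log2 scale, with 6 of 6 genes above 0 at a median difference of 0.49. Olfactory bulb markers had a median level of 7.41 in HT-labelled and 6.11 in WT-labelled libraries, with 6 of 6 above 0 at a median difference of 0.63. Septal markers had 7.63 and 7.20, with 4 of 4 above 0 at 0.05. No marker on these lists passed. Apart from a fit with the olfactory bulb level as a covariate, not given here for this comparison, their part in the difference was not tested. Under lithium the median difference was −0.00021, with 0.267% of all genes called, and under vehicle 0.03, with 0.202%. Neither had a stable sign. Without WT-labelled lithium male 2 the lithium median was 0.17 with 28 of 29 above 0, and without HT-labelled lithium female 5 it was −0.08. Without HT-labelled vehicle female 3 the vehicle median was −0.08 with 7 of 29 above 0, and without WT-labelled vehicle female 5 it was 0.16. Without the 9 both were below 0, at −0.04 and −0.03. Under lithium Six3 had 0.69 ± 0.986, Sh3rf2 0.67 ± 0.680, Strip2 0.10 ± 0.096, Arpp21 −0.05 ± 0.055 and Drd1 −0.21 ± 0.393. The sign of Drd1 rests on WT-labelled lithium male 2, without which it was 0.04. Under vehicle Syndig1l had 0.45 ± 0.434, Kcnip2 0.09 ± 0.055, Ebf1 0.23 ± 0.145, Arpp21 −0.08 ± 0.055 and Six3 −0.20 ± 0.986. The sign of Six3 under vehicle changed when single libraries were left out. Pdyn under fluoxetine had −0.17 ± 0.115.

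Genes around the same pathway were taken from lists of non-members. Of 19 tested genes of dopamine and cyclic AMP signalling (G protein subunits, kinase and phosphatase subunits, CREB family members), none passed with lithium and 13 were above 0 at a median of 0.03. The smallest p-values with lithium were those of Crem (0.16 ± 0.052, adjusted p = 0.0590) and Gnb5 (0.07 ± 0.027, adjusted p = 0.0965), where Crem is a cyclic AMP response factor. With fluoxetine 18 of 19 were above 0 at a median of 0.04 and none passed, with Ppp1ca (0.08 ± 0.026, adjusted p = 0.195) and Prkar1b (0.13 ± 0.053, adjusted p = 0.314) first by p. Of 6 receptors for the peptides and for adenosine, 1 rose with lithium, the delta opioid receptor gene Oprd1, where 4.41% of all genes were called, and 4 were above 0, against 49.8% of all genes. Without the 9 striatum-rich libraries Oprd1 had 0.24 ± 0.0756 (SE) and did not pass (adjusted p = 0.0694 with limma). First by p were Oprd1 (0.22 ± 0.068, adjusted p = 0.0464) and Adora1 (0.16 ± 0.066, adjusted p = 0.155). The 9 markers of cortical excitatory neurons had 6 above 0 with lithium and 9 with fluoxetine, at medians of 0.06 and 0.09, and none passed. First by p were Rorb (−0.09 ± 0.046, adjusted p = 0.277) and Fezf2 (0.20 ± 0.128, adjusted p = 0.409) with lithium.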

How the data were processed

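Bulk stranded mRNA libraries of prefrontal cortex were analysed from a table of 51456 genes by 59 libraries. The deposited signal values are normalized estimated counts made by the authors; the submitters' processing notes name DESeq2 1.19.11, Salmon 0.11.2 and R 3.6.0, besides the build GRCm38, without giving their role. The groups come from the labels. The values are not raw counts, so limma 3.58.1 (R 4.3.3) was fitted to log2(value + 1) over all 12 group means, with trended and robust variance, for 16839 genes with a mean of at least 10, and p-values were Benjamini-Hochberg adjusted over all of them, with a call at 0.05. Fold changes on that scale understate the change of low genes. The fit was tested on simulated data. Genes were matched by symbol, coordinates are from GENCODE on GRCm38, and promoter windows are from RefSeq. Depth was estimated from the step of 1 read. Members and lists were chosen with earlier results of these data known. The genes given library by library are receptor, peptide, signalling and transcription factor genes named from the list, plus Pde10a, added after its values were seen; in each of 9 contrasts the 3 members with the smallest p and those with the highest and lowest log2 fold change are named, and for other lists the 2 with the smallest p. Alternatives were TMM scaling, no filter, a pseudocount of 0.5, another variance shrinkage, a replicate block, covariates, fewer groups and left-out libraries. The limit of 3 robust SDs was chosen after seeing the data. Not every gene of the marker lists is reported here by name.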

Additional observations from a re-analysis of the deposited data

Results flagged for a closer look

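The 10 genes given library by library made 120 sets of gene and group. In 35 sets the highest library lay far from the others by Dixon's test at the 95% level. Chance alone passes that test in about 1 of 20 sets. The genes vary together in the same libraries and Pde10a was added after its values were seen. The 35 thus cannot be compared with that rate. For Drd1, the normalized count was 1004 in HT-labelled vehicle female 3, 479 in WT-labelled fluoxetine female 1, 377 in WT-labelled fluoxetine male 2, 1637 in WT-labelled lithium male 2 and 806 in WT-labelled vehicle female 5. For Drd2, the normalized count was 215 in HT-labelled lithium female 5, 383 in HT-labelled vehicle female 3, 87.5 in HT-labelled vehicle male 4, 148 in WT-labelled fluoxetine female 1, 158 in WT-labelled lithium female 1, 939.9 in WT-labelled lithium male 2 and 252 in WT-labelled vehicle female 5. For Adora2a, the normalized count was 452 in HT-labelled lithium female 5, 839.7 in HT-labelled vehicle female 3, 285 in WT-labelled fluoxetine female 1, 246 in WT-labelled lithium female 1, 1770.5 in WT-labelled lithium male 2 and 574 in WT-labelled vehicle female 5. For Ppp1r1b, the normalized count was 4568 in HT-labelled vehicle female 3, 2791 in WT-labelled fluoxetine female 1, 8692 in WT-labelled lithium male 2 and 3362 in WT-labelled vehicle female 5. For Penk, the normalized count was 5898 in WT-labelled lithium male 2 and 2627 in WT-labelled vehicle female 5. For Pdyn, the normalized count was 1454 in WT-labelled lithium male 2. For Tac1, the normalized count was 1246 in HT-labelled vehicle female 3, 1723 in WT-labelled lithium male 2 and 1082 in WT-labelled vehicle female 5. For Foxp2, the normalized count was 497 in HT-labelled fluoxetine male 3, 563 in HT-labelled vehicle female 3 and 916 in WT-labelled lithium male 2. For Arpp21, the normalized count was 19514 in WT-labelled lithium male 2. For Pde10a, the normalized count was 5151 in HT-labelled lithium female 5, 5972 in HT-labelled vehicle female 3 and 10121 in WT-labelled lithium male 2. Most of these values belong to the libraries described as striatum-rich, and WT-labelled fluoxetine female 1 and WT-labelled lithium female 1 are among those that are not. The causes were not tested.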

How the results depend on the processing

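Of the alternative values, 2016 were counted as unchanged, 16 moved, 10 reversed, 7 became stronger and 1 weaker. For single genes, unchanged meant the same sign and side of the threshold. For counts of genes called it meant a similar count, and many of these were 0 and stayed 0. Medians over the genes counted as unchanged within 0.52 log2 units (the SD of their mean level within groups), whatever their sign. Several medians changed sign, as given above, so this tally says nothing about the direction of medians. With only the groups of the contrast, the number of genes called with lithium averaged over strata was 0, and Pde10a had 0.47 (adjusted p = 0.0541 with limma). The number called was 1 for lithium in HT-labelled libraries without the 2, 8 or 9 libraries and with the striatal covariate. It was 1 for lithium in WT-labelled libraries without the 8 or 9 and with the covariate. Without the 9, 0.0831% (HT-labelled) and 0.261% (WT-labelled) of all genes were called. For lithium minus fluoxetine the number called was 1 without the 2, 8 or 9 and with the covariate. That gene was Tmem158 without the 9, where 5.93% of all genes were called. With the covariate it was Pde10a, where 8.99% were called. For any group difference the number was 1, Pde10a, without the 2, 8 or 9 and with the covariate. Shares of all genes in the other settings are not given here. The 8 were picked by the level of the tested genes themselves, so counts without the 8 are no support. Slc35d3 with fluoxetine had 0.00866 without the 9. Six3 between genotypes under lithium had −0.0399 without the 8 or the 9, and Drd1 0.0449 without the 2. With single libraries left out, Drd1 between genotypes under lithium ranged from −0.354 to 0.0449 and Six3 under vehicle from −0.859 to 0.279. With replicate numbers as a block, lithium averaged over strata called 639 and 391 genes up and down, against 471 and 271, and Pde10a kept 0.47 (adjusted p = 0.0197). Deviations of same-numbered libraries from their group means had a median correlation of 0.0479, with 123 of 319 pairs over 0.1. For libraries of other numbers the median was −0.0185. The labels do not say what the numbers stand for, and whether same-numbered libraries were handled together was not tested. The causes of these shifts were not tested.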
